A study of Mus musculus with 18 samples.

Results

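The genes of MHC class II antigen presentation were followed in B cells isolated from the spleen and the Peyer's patches (PPs) of OVA-sensitized mice. They were *H2-Aa*, *H2-Ab1*, *H2-Eb1*, *Cd74*, *H2-DMa*, *H2-DMb1*, *H2-DMb2*, *H2-Oa*, *H2-Ob*, and *Ciita*, taken by gene name from the deposited expected count table. All 10 were found among the 55491 genes of that table, and all 10 passed the low-count filter in each of the 11 comparisons made. In PP B cells, all 10 were lower in soluble OVA–treated mice than in PBS-treated mice, against 13.9% of all tested genes. In splenic B cells none of them passed the test as lower, against 6.72% of all tested genes.

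MHC class II molecules are heterodimers of an α and a β chain that carry peptides from endocytosed antigen to the cell surface, where CD4+ T cells read them. The α and β chains (*H2-Aa* with *H2-Ab1*, and *H2-Ea* with *H2-Eb1*) assemble with the invariant chain encoded by *Cd74*, which fills the peptide groove until endosomal proteases cut it down to a short remnant. H2-DM (*H2-DMa* with a β chain from *H2-DMb1* or *H2-DMb2*) exchanges that remnant for antigenic peptides, and H2-O (*H2-Oa* with *H2-Ob*), which is abundant in B cells, restrains H2-DM. *Ciita* encodes a coactivator of class II genes that docks on factors bound to the X and Y boxes of their promoters.

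The mice were female BALB/cJ animals that were 4 to 6 weeks old at the start and 10 to 12 weeks old at collection. Every group, PBS controls included, had been sensitized i.p. with 20 µg OVA in 1 mg alum on days 0 and 14, so no unsensitized mice were compared. On days 28 and 42 the mice received i.v. 2.5 mg of OVA-encapsulating nanoparticles (OVA NPs), 100 µg soluble OVA, or 100 µL PBS, and B cells were collected on day 44 by magnetic negative selection. The 6 groups of tissue and treatment had 3 libraries each, named as biological replicates, and neither pooling of animals nor a shared animal behind spleen and PP libraries was stated. The 2.5 mg is the mass of particles, and by the OVA loading stated in the study's methods this carried the same nominal 100 µg of OVA as the soluble dose.

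Library totals ran from 15670042 to 26167308 counts in the spleen and from 14177253 to 30052297 in PPs, and the fewest counts of any member in a library were 1822, for *H2-DMb1* in PP PBS replicate 2, the shallowest library. B cell markers were abundant in all groups. The summed level of 7 genes was 7770 to 9350 CPM (counts scaled to the library total after TMM) in the spleen. In PPs it was lower, at 5890 to 7350 CPM. The 6 epithelial markers summed to 7.17 to 9.55 CPM in spleen libraries and 150 to 726 CPM in PP libraries, with *Krt20* at 0 in every splenic library and *Muc2* at 0 in the splenic soluble OVA libraries. Mitochondrially encoded genes took 2.82% to 3.41% of counts in the spleen, 5.41% to 7.67% in PP PBS libraries, 4.97% to 6.02% in PP soluble OVA libraries, and 9.08% to 9.8% in PP OVA NP libraries. In bulk RNA of this kind, a lower level from fewer cells of a type and a lower level from less RNA per cell cannot be told apart.

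Most of the members are neighbors. On GRCm38, *H2-Oa* (34092340 to 34095234), *H2-DMa*, *H2-DMb2*, *H2-DMb1*, *H2-Ob*, *H2-Ab1*, *H2-Aa*, and *H2-Eb1* (34305867 to 34316674) lie on chromosome 17 within one stretch, and *Ciita* lies on chromosome 16 (10480059 to 10528418). *H2-DMb1* and *H2-DMb2* are near-copies. They share 517 of their 31-base words, which is 37.6% of those in the coding transcripts of *H2-DMb1* and 29.7% of those of *H2-DMb2*, so the split of reads between them is uncertain. *H2-Eb1* and *H2-Eb2* shared 14 such words, 0.78% of those of *H2-Eb1*. All reads came from BALB/cJ mice, which carry the d haplotype of this locus, whereas the reference genome is that of C57BL/6J with the b haplotype. Reads lost to that difference would affect the level of a gene in every group alike, but levels of different class II genes are less comparable.

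RefSeq promoter entries (GRCm38.p6, C57BL/6J sequence) were matched for 7 members, and none was read for *H2-Ab1*, *Ciita*, or *Cd74*. Each was searched over the 250 bases before the transcription start for the Y box core GATTGG and the X box core GNAAC. The ordered pair was GNAAC then GATTGG with 20 to 40 bases between them. In the members the pair was sought on the strand of the gene only, and in all promoters on either strand. The pair was found in 5 of the 7 members, *H2-Aa*, *H2-Eb1*, *H2-DMb1*, *H2-Oa*, and *H2-Ob*, and in 0.989% of all 32851 promoters of the same length. GATTGG alone was found in 14.6% of all promoters and GNAAC alone in 79.6%. The stretches below are the 80 bases around the Y box core, written 5′ to 3′ on the strand of the gene, with the cores in capitals. They are shown so that the letters the promoters share, and those that *H2-DMb2* lacks, can be compared.
H2-Aa: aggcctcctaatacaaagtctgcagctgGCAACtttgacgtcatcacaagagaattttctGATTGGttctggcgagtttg
H2-Eb1: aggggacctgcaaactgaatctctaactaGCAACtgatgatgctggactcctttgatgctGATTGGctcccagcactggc
H2-DMb1: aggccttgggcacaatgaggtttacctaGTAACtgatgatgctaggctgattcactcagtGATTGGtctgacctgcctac
H2-Oa: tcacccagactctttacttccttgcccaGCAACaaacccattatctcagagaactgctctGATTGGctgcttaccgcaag
H2-Ob: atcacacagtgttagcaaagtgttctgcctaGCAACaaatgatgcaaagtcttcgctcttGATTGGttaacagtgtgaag
H2-DMb2: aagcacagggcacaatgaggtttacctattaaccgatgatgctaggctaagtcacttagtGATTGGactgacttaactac
H2-Eb2: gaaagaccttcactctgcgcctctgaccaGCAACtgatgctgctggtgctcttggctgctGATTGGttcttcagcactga

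In genome order these stretches are chr17:34092275-34092354 for *H2-Oa*, chr17:34145098-34145177 for *H2-DMb2*, chr17:34153069-34153148 for *H2-DMb1*, chr17:34238787-34238866 for *H2-Ob*, chr17:34287853-34287932 on the minus strand for *H2-Aa*, chr17:34305747-34305826 for *H2-Eb1*, and chr17:34325514-34325593 for *H2-Eb2*, a second Eβ gene that is no member and, as given further on, did not pass the test in PPs after soluble OVA. Between 24 and 27 bases separated the cores in the 5 members that held the pair, and 26 in *H2-Eb2*. The Y box core began 44 bases before the start site in *H2-Oa*, 49 in *H2-Aa*, 58 in *H2-Ob*, 60 in *H2-Eb1*, and 62 in *H2-DMb1*. *H2-DMb2* held GATTGG 91 bases before its start but no GNAAC at that spacing. Neither of the 2 promoter entries of *H2-DMa* held the pair on the strand of the gene, and 1 of them held GATTGG 199 bases before the start. A match is a description of letters, not evidence of binding.

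Per unit of exon length, *Cd74* was by far the most abundant member. Its mean level over the 18 libraries was 14980 TPM (transcripts scaled by exon length and then to a common total), rank 4 among all genes, and its group means ran from 9443 TPM in PP soluble OVA libraries to 19280 TPM in splenic PBS libraries. *H2-Ab1* followed with a mean level of 2785 TPM, and then *H2-DMb2* with 1574 TPM. The other peptide-binding chains averaged 1397 TPM for *H2-Eb1* and 726 TPM for *H2-Aa*. *H2-DMb1*, the near-copy of *H2-DMb2*, averaged 251 TPM, and *H2-DMa* averaged 286 TPM. The H2-O chains were close to each other, at 385 TPM for *H2-Ob* and 371 TPM for *H2-Oa*, and *Ciita* averaged 260 TPM. The order rests in part on the annotated length. With the longest coding transcript in place of the union of exons, *H2-Aa* averaged 1771 TPM, above *H2-DMb2* (1344 TPM) and *H2-Eb1* (1179 TPM), and *H2-DMa* (357 TPM) passed *H2-Oa* (348 TPM), while *Cd74* and *H2-Ab1* kept the first places. Together the 10 genes took 1.49% to 1.9% of all counts in splenic libraries, 1.52% to 1.64% in PP PBS libraries, 1.29% to 1.34% in PP OVA NP libraries, and 0.918% to 1.15% in PP soluble OVA libraries.

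**Figure D1:**
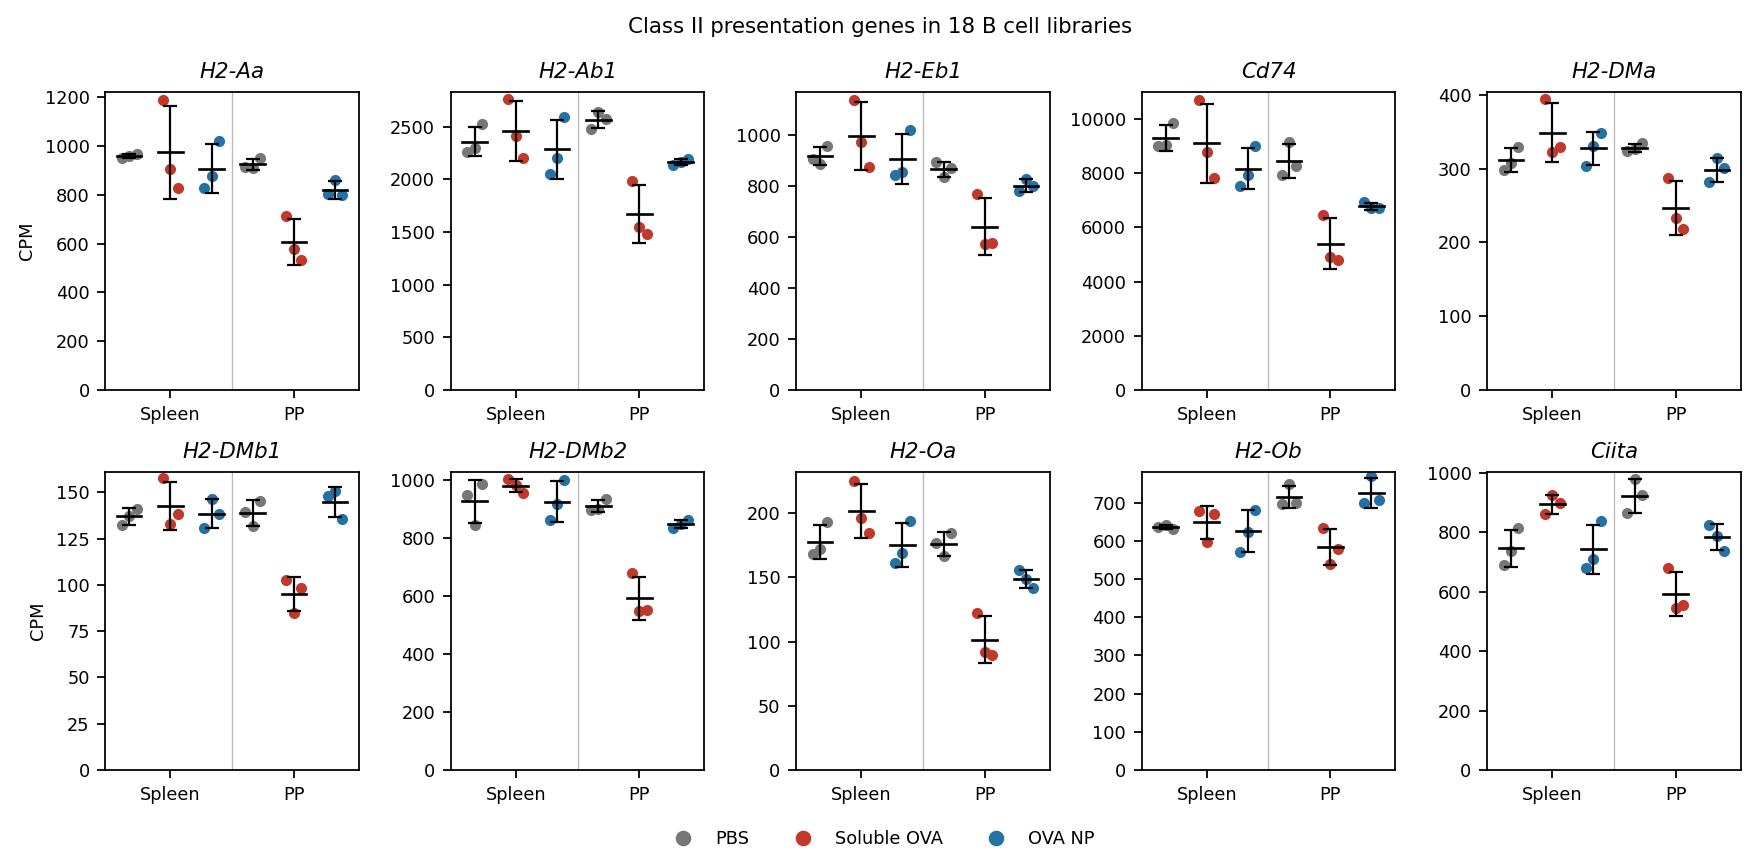
Level of each class II presentation gene in CPM (y axis, starting at 0) in the 18 libraries, by tissue and treatment, with each point a library, the long bar the mean of 3 libraries and the whiskers 1 SD. In all 10 panels the PP soluble OVA group has the lowest mean, and its 3 points sit below the 3 PP PBS points.

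The first comparison asked how soluble OVA, given to sensitized mice, changed these genes in PP B cells. All 10 members were DEGs and all were lower (adjusted p under 0.05 and a log2 fold change beyond 0.25 in either direction, edgeR's quasi-likelihood test), against 13.9% of 15792 tested genes called lower. Their median log2 fold change was -0.65, against -0.018 over all tested genes. The soluble OVA and PBS libraries did not overlap for any of the 10, where 44.9% of all tested genes had groups that did not overlap. In each of the 10 genes, PP soluble OVA was the group with the lowest mean of the 6.

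Among the peptide-binding chains, the α chain gene *H2-Aa* measured 913, 912, and 952 CPM in PP PBS libraries and 715, 577, and 534 CPM in PP soluble OVA libraries. All soluble OVA values lay below all PBS values, and the log2 fold change was -0.65 (SE 0.096, edgeR adjusted p = 0.00129), or 36.2% lower. Its partner *H2-Ab1* went from 2481, 2640, and 2574 CPM to 1988, 1543, and 1480 CPM. The fall was almost the same size as that of *H2-Aa* (log2 fold change -0.66, SE 0.1, adjusted p = 0.00158). *H2-Eb1*, the β chain of the second class II molecule, measured 892, 832, and 868 CPM with PBS and 767, 573, and 577 CPM with soluble OVA. Its change was smaller (-0.48, SE 0.1, adjusted p = 0.00852), and it missed the threshold without soluble OVA replicate 2 or replicate 3, with adjusted p-values of up to 0.0902.

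*Cd74*, the invariant chain that guards the groove, showed the largest fall in absolute terms. It measured 7921, 9160, and 8264 CPM in PP PBS libraries against 6473, 4909, and 4807 CPM in PP soluble OVA libraries. The log2 fold change was -0.69 (SE 0.11, adjusted p = 0.00224), or 38% lower.

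The peptide editor H2-DM fell in all of its chains. *H2-DMa* measured 324, 327, and 334 CPM with PBS and 288, 234, and 218 CPM with soluble OVA (log2 fold change -0.46, SE 0.091, adjusted p = 0.00563). *H2-DMb1* went from 139, 132, and 146 CPM to 103, 84.6, and 98.2 CPM (-0.59, SE 0.083, adjusted p = 0.00104). *H2-DMb2*, its more abundant near-copy, went from 895, 900, and 932 CPM to 677, 547, and 552 CPM (-0.66, SE 0.084, adjusted p = 0.00058). Without soluble OVA replicate 2 or replicate 3, *H2-DMa* was no longer called, with adjusted p-values of up to 0.0656.

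The 2 chains of H2-O, the brake on H2-DM, moved by different amounts. *H2-Oa* had the largest log2 fold change of the 10, from 177, 166, and 185 CPM with PBS to 122, 92.3, and 89.8 CPM with soluble OVA (-0.84, SE 0.11, adjusted p = 0.000657), which is 44% lower. *H2-Ob* had the smallest, from 695, 749, and 700 CPM to 634, 540, and 579 CPM (-0.33, SE 0.074, adjusted p = 0.00968), which is 20.5% lower. The *H2-Ob* groups still did not overlap, but the call was lost without soluble OVA replicate 2, soluble OVA replicate 3, or PBS replicate 2, with adjusted p-values of up to 0.155.

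*Ciita*, the coactivator gene, measured 866, 980, and 927 CPM with PBS and 679, 544, and 555 CPM with soluble OVA. The values did not overlap, and the log2 fold change was -0.68 (SE 0.09, adjusted p = 0.000721), close to the median of the 10 members. Among the 3 PP soluble OVA libraries, replicate 1 was the highest for 10 of 10 members, so the spread within the group was shared by the whole set.

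Other measurements moved with this fall. In this comparison 13.5% of all tested genes were called higher and 13.9% lower. Of 10 germinal center B cell markers, 9 were higher in PP soluble OVA than in PP PBS libraries (median log2 fold change 0.67), and their summed level was 3100 to 3230 CPM against 1680 to 2010 CPM. All 8 cycling markers were higher (median 1.08), with summed levels of 3510 to 3840 CPM against 1520 to 1870 CPM. Of 7 pan–B cell markers, *Cd22* and *Cd79a* were lower, *Blnk* was higher, and 4 were not called (median -0.17). Their sums were 7130, 5890, and 6040 CPM in soluble OVA replicates 1, 2, and 3, against 6750 to 7350 CPM with PBS. Of 7 marginal zone markers, 5 were lower and 1 was higher (median -0.70). Of the dendritic cell markers, which mark another class II–rich cell type, 1 of 8 was lower (median -0.53), and their sums were 53 to 53.8 CPM against 51.7 to 74.4 CPM. The 6 epithelial markers had 0 calls by edgeR. Their sums were 184, 699, and 664 CPM in soluble OVA replicates 1, 2, and 3, against 150 to 482 CPM with PBS. Replicate 1, the highest of the 3 for the members, thus had the highest B cell sum and the lowest epithelial sum. Of 9 tested monocyte and macrophage markers, 1 was lower (median -0.47, sums of 172 to 397 CPM against 173 to 296 CPM), with *Cd300e* at 0 in all PP soluble OVA libraries. Of 7 tested plasma cell markers 3 were higher and 1 was lower (median 0.007), with sums of 1070 to 1220 CPM against 926 to 1030 CPM that did not overlap. The part of these marker changes in the fall of the class II genes was not tested.

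The same question in the spleen gave a different answer. Of the 10 members, 1 was higher and 0 were lower after soluble OVA, against 10.5% of 14128 tested genes called higher and 6.72% called lower. The member median was 0.11, against -0.0082 over all tested genes. *Ciita* was the one called, at 861, 925, and 899 CPM in soluble OVA libraries against 690, 737, and 814 CPM in PBS libraries. It was higher in all 3 soluble OVA libraries (log2 fold change 0.30, SE 0.078, adjusted p = 0.0148), but the call was lost without PBS replicate 1, PBS replicate 2, or soluble OVA replicate 2, with adjusted p-values of up to 0.0982. *H2-Oa* (0.22, SE 0.075, adjusted p = 0.0563) and *H2-DMa* (0.20, SE 0.074, adjusted p = 0.0776) came next and did not pass. In these same splenic libraries 10 of 10 germinal center markers (median 3.03) and 8 of 8 cycling markers (median 1.25) were higher than with PBS. The germinal center sums were 461 to 717 CPM against 114 to 206 CPM with PBS. The cycling sums were 1120 to 1280 CPM against 493 to 575 CPM. Both lay below the PP PBS and PP soluble OVA sums given above. Of 7 marginal zone markers 4 were lower and 1 was higher. Of 7 tested monocyte and macrophage markers 4 were lower and 0 higher. Of 7 tested plasma cell markers 4 were higher and 0 lower. The part of these markers was not tested.

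The difference between tissues was then tested directly as an interaction of tissue with soluble OVA over 12 libraries. All 10 members differed, each more negative in PPs than in the spleen, against 6.84% of 16541 genes called in either direction. The median difference in log2 fold change was -0.69, against -0.038 over all genes. *H2-Oa* (-1.05, SE 0.15, adjusted p = 0.0006) and *Ciita* (-0.97, SE 0.13, adjusted p = 0.000315) differed most. The structural and editing genes lay close together, at -0.70 for *H2-Aa*, -0.75 for *H2-Ab1*, -0.63 for *H2-Eb1*, -0.69 for *Cd74*, -0.65 for *H2-DMa*, -0.68 for *H2-DMb1*, and -0.77 for *H2-DMb2*. *H2-Ob* was the least different (-0.39, SE 0.099, adjusted p = 0.0287). The count fell to 6 without any one of Spleen PBS replicate 1, Spleen PBS replicate 2, PP soluble OVA replicate 2, or PP soluble OVA replicate 3. Of the 12 refits without 1 library, the call was lost in 8 for *H2-Ob*, 7 for *Cd74*, 5 for *H2-Eb1*, and 4 for *H2-Aa*. *H2-Ob* also lost it with a replicate block.

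**Figure D2:**
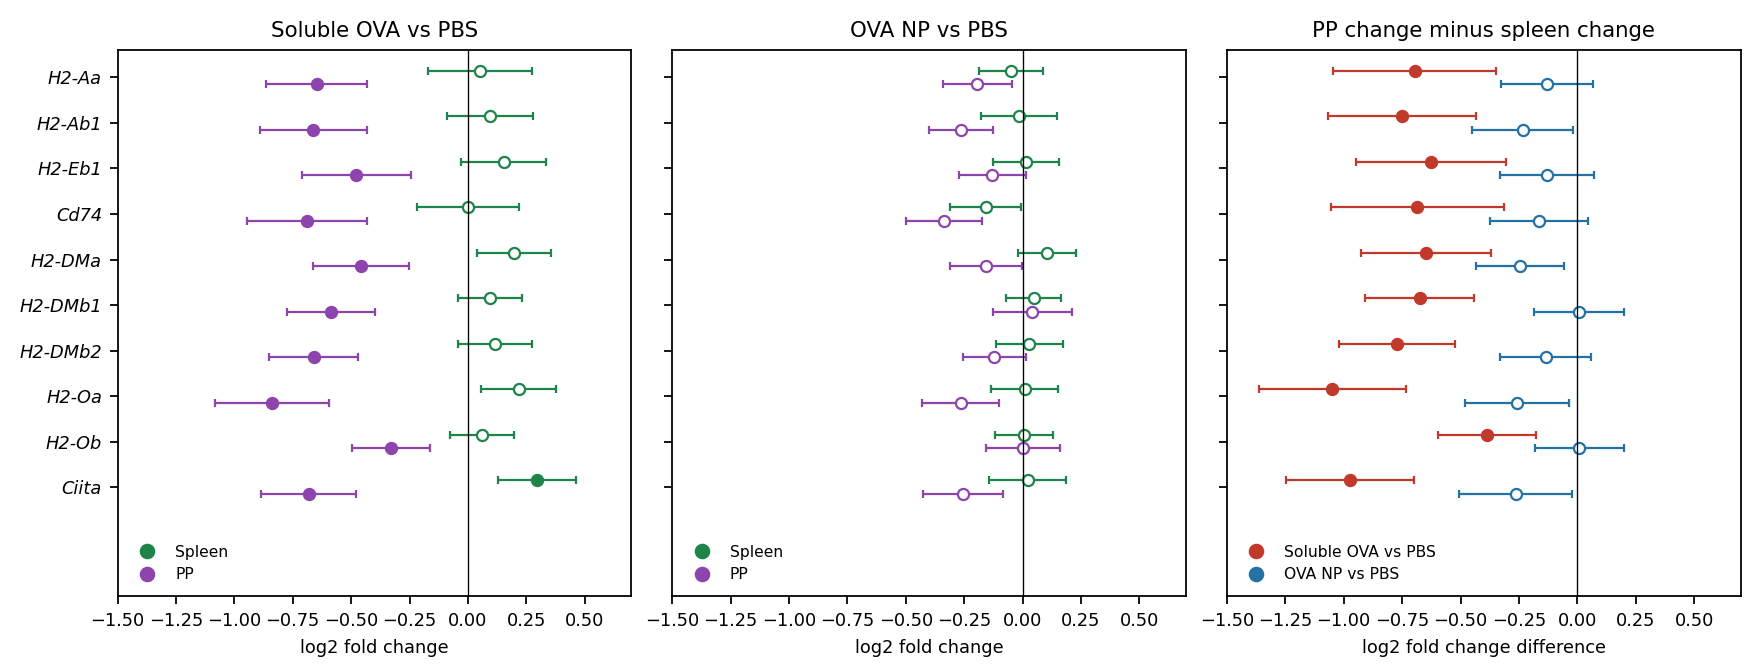
Log2 fold change of each member (x axis) with its 95% interval for soluble OVA vs PBS and OVA NP vs PBS in each tissue, and the difference of the PP and spleen changes, with filled points called and open points not called. For soluble OVA, the 10 PP points are filled and lie at or below -0.33, while 1 splenic point is filled, *Ciita* at 0.30.

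OVA NPs in PPs were compared with PBS next. None of the 10 members was a DEG by edgeR, but neither was any other gene, since 0% of 15798 tested genes were called higher and 0% were called lower. At an unadjusted p under 0.05 there were 6 members and 1573 genes. The DESeq2 Wald test called 2 members, *Cd74* (log2 fold change -0.33, adjusted p = 0.0037) and *H2-Ab1* (-0.26, adjusted p = 0.00314), and 149 genes. In edgeR the same 2 genes had the smallest adjusted p-values of the members, 0.224 for *Cd74* (-0.34, SE 0.072) and 0.259 for *H2-Ab1* (-0.26, SE 0.061). Their values did not overlap between groups: *Cd74* measured 6936, 6711, and 6696 CPM with OVA NPs and *H2-Ab1* 2137, 2166, and 2194 CPM, each below its PBS values given above. Groups did not overlap for 8 of the 10 members, all lower with OVA NPs, against 17% of all tested genes.

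For the remaining members the OVA NP estimates in PPs ran from -0.26 to 0.041. *H2-Oa* (-0.26, SE 0.073, adjusted p = 0.331), *Ciita* (-0.26, SE 0.076, adjusted p = 0.361), and *H2-Aa* (-0.19, SE 0.065, adjusted p = 0.4) were the most negative. *H2-DMa* (-0.16), *H2-Eb1* (-0.13), and *H2-DMb2* (-0.12) were smaller, and the intervals of the last 2 included 0. *H2-DMb1* (0.041, 95% interval -0.13 to 0.21) and *H2-Ob* (0.00064, 95% interval -0.16 to 0.16) overlapped with PBS.

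PP B cells of OVA NP–treated mice had higher class II levels than those of soluble OVA–treated mice. Of the 10 members 7 were DEGs and higher, against 13.8% of 15599 tested genes, with a median log2 fold change of 0.40 against 0.025 over all genes. *H2-DMb1* differed most, at 148, 151, and 136 CPM with OVA NPs against the soluble OVA values of 84.6 to 103 CPM given above (0.61, SE 0.094, adjusted p = 0.00171). *H2-Oa* at 156, 148, and 142 CPM (0.56, SE 0.12, adjusted p = 0.0105) and *H2-DMb2* at 834, 848, and 861 CPM (0.53, SE 0.1, adjusted p = 0.00471) followed. These 3 were called in every refit with a replicate left out.

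The other calls in that comparison were less firm. *H2-Aa* (0.44, adjusted p = 0.0193), *Ciita* (0.41, adjusted p = 0.0172), *H2-Ab1* (0.38, adjusted p = 0.0384), and *H2-Ob* (0.32, adjusted p = 0.0266) passed edgeR's test. *H2-Eb1* (0.33, adjusted p = 0.0689), *Cd74* (0.34, adjusted p = 0.0713), and *H2-DMa* (0.28, adjusted p = 0.0841) did not. The count of 7 fell to 3 without soluble OVA replicate 2, soluble OVA replicate 3, or OVA NP replicate 2, to 4 with a replicate block, and rose to 10 by DESeq2. Groups did not overlap for 9 of the 10, against 48.4% of all genes. In this comparison 13.8% of all tested genes were called higher and 16.3% lower. Germinal center markers (9 of 10, median -0.74) and cycling markers (8 of 8, median -1.22) were lower with OVA NPs, and of 8 dendritic cell markers 6 were higher and 1 was lower, with sums of 77.6 to 81.9 CPM against 53 to 53.8 CPM. Of 9 tested monocyte and macrophage markers 4 were higher and 0 were lower by edgeR (median 0.91), with sums of 304 to 395 CPM against 172 to 397 CPM. Of the T cell markers 4 of 8 were higher (median of the 8, 1.44) and 1 was lower, *Lck* (-0.47, adjusted p = 0.00491). The T cell sums ran against most of these calls, at 138 to 146 CPM against 163 to 188 CPM. The part of these markers in the difference was not tested. This comparison and the one of soluble OVA with PBS use the same soluble OVA libraries.

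In the spleen, OVA NPs left the class II genes near their PBS level. By edgeR 0 of 10 were called, against 8.6% of 14200 tested genes called higher and 6.35% called lower, and DESeq2 called 0 as well. At an unadjusted p under 0.05 there was 1 member and 4651 genes. The 1 member was *Cd74*, at 7538, 7939, and 9011 CPM with OVA NPs and 9009, 9042, and 9857 CPM with PBS (log2 fold change -0.16, SE 0.071, adjusted p = 0.136). DESeq2 gave it an adjusted p of 0.03, under the fold change cutoff. *H2-DMa* had the most positive estimate, 0.10 (95% interval -0.02 to 0.23). No member had groups that did not overlap, where 36.8% of all tested genes did. The member median of 0.011 was close to the all-gene median of 0.00062.

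Between OVA NPs and soluble OVA in the spleen, the estimates of all 10 members were below 0 (median -0.10, against -0.0035 over all genes), but none passed the test. By edgeR 0 members were called, against 0.137% of 13840 genes called higher and 0.101% called lower, and DESeq2 also called 0. At an unadjusted p under 0.05 there were 2 members and 1199 genes. The 2 were *Ciita*, at 680, 709, and 838 CPM with OVA NPs (-0.27, SE 0.087, adjusted p = 0.341), and *H2-Oa*, at 162, 169, and 194 CPM (-0.21, SE 0.082, adjusted p = 0.483). The OVA NP and soluble OVA values of *Ciita* did not overlap.

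The interaction of tissue with OVA NPs called 0 members by edgeR and 0 by DESeq2, against 4.42% of 16619 genes called by edgeR. At an unadjusted p under 0.05 there were 4 members and 3106 genes. *H2-DMa* (-0.25, adjusted p = 0.136), *H2-Oa* (-0.26, adjusted p = 0.191), and *Ciita* (-0.26, adjusted p = 0.224) were among them, each more negative in PPs.

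Differences between the tissues themselves depended on treatment. Between PBS-treated mice, PP and splenic B cells had similar class II levels: 1 of 10 members was called, *Ciita*, which was higher in PPs (0.34, SE 0.073, adjusted p = 0.00314), against 25.5% of 15463 genes called higher. *H2-Ob* was also above its splenic level in all 3 PP libraries (0.21, SE 0.052, adjusted p = 0.00787) but under the fold change cutoff. *H2-Ab1* (0.16, adjusted p = 0.0564) and *Cd74* (-0.10, adjusted p = 0.24) did not pass. In this comparison 4 of 7 B cell markers were lower in PPs and 0 were higher (median -0.29), against 20.1% of all genes called lower. The part of that difference in the class II levels was not tested.

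Between soluble OVA–treated mice the tissues stood apart. There 9 of 10 members were lower in PP than in splenic B cells, against 24.3% of 15415 genes called lower, with a member median of -0.66. *H2-Oa* had the largest difference, at 225, 196, and 185 CPM in the spleen against 122, 92.3, and 89.8 CPM in PPs (-1.04, SE 0.12, adjusted p = 0.000122). *Cd74*, at 10690, 8795, and 7811 CPM in the spleen, differed by -0.80 (SE 0.14, adjusted p = 0.00128). The differences were -0.77 for *H2-DMb2*, -0.72 for *H2-Aa*, -0.68 for *H2-Eb1*, -0.64 for *Ciita*, -0.63 for *H2-DMb1*, -0.60 for *H2-Ab1*, and -0.54 for *H2-DMa*. *H2-Ob* was the exception, with a difference of -0.19 (SE 0.08, adjusted p = 0.067) and overlapping groups. In OVA NP–treated mice 1 of 10 members was called, *Cd74*, which was lower in PPs (-0.26, SE 0.065, adjusted p = 0.0114), against 15.1% of 15466 genes called lower. That value sat at the fold change cutoff and was lost under several settings. *H2-Oa* (-0.23, adjusted p = 0.0308) and *H2-Ob* (0.23, adjusted p = 0.0289) had changes of opposite sign under the cutoff.

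The balance of editor and brake was examined as the mean log2 CPM of *H2-Oa* and *H2-Ob* minus that of the 3 H2-DM genes, a relative scale that is read between groups only. It was 0.035 ± 0.025 (SD, n = 3) in PP PBS, 0.018 ± 0.019 in PP soluble OVA, and -0.018 ± 0.032 in PP OVA NP libraries. In the spleen it was -0.018 ± 0.027 with PBS, -0.015 ± 0.014 with soluble OVA, and -0.073 ± 0.065 with OVA NPs. PP PBS and PP soluble OVA libraries overlapped in this balance when all 3 H2-DM genes were counted. The split of reads between *H2-DMb1* and *H2-DMb2* is uncertain, so each was also left out. Without *H2-DMb2* the groups did not overlap, at 0.72, 0.71, and 0.77 against 0.70, 0.67, and 0.64. Without *H2-DMb1* they overlapped, at -0.62, -0.63, and -0.62 against -0.66, -0.68, and -0.61. Within H2-O the chains fell by different amounts. The log2 CPM of *H2-Oa* minus that of *H2-Ob* was -2.02 ± 0.13 (SD, n = 3) in PP PBS, -2.54 ± 0.16 in PP soluble OVA, and -2.29 ± 0.11 in PP OVA NP libraries, with the 3 soluble OVA values (-2.37, -2.55, and -2.69) below the 3 PBS values (-1.98, -1.92, and -2.17). In the spleen it ran from -1.84 ± 0.12 with PBS to -1.69 ± 0.15 with soluble OVA. By contrast, *H2-Aa* minus *H2-Ab1* was -1.47 ± 0.055 in PP PBS and -1.46 ± 0.031 in PP soluble OVA libraries.

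**Figure D3:**
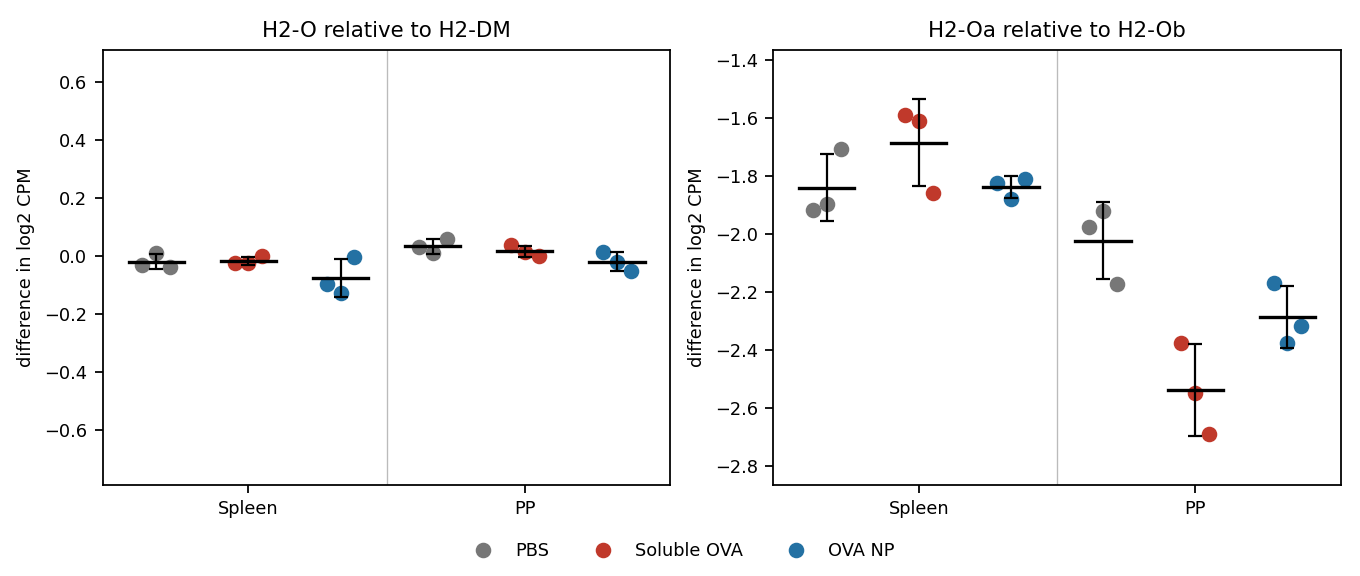
Difference in mean log2 CPM (y axis) between the H2-O and H2-DM genes and between *H2-Oa* and *H2-Ob*, for each library, with the mean and 1 SD of 3 libraries, on axes of equal height. The H2-O to H2-DM group means run from -0.073 to 0.035, on a scale whose 0 depends on the genes counted and has no meaning of its own. *H2-Oa* relative to *H2-Ob* reaches its lowest mean, -2.54, in PP soluble OVA libraries.

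The other Eα and Eβ genes of the locus behaved unlike each other. *H2-Ea*, the α partner of *H2-Eb1*, is not expressed in C57BL/6 mice, where the reference annotation lists it as a polymorphic pseudogene, but BALB/c mice express it, and it averaged 974 CPM here. In PPs it fell from 1111 ± 45.6 CPM (SD, n = 3) with PBS to 790 ± 122 CPM with soluble OVA (log2 fold change -0.54, SE 0.097, adjusted p = 0.00358). *H2-Eb2* did not follow, at 84.6 ± 5.9 CPM with PBS and 91.5 ± 4.22 CPM with soluble OVA (0.074, adjusted p = 0.488). It was higher in PPs than in the spleen, where PBS libraries had 20 ± 3.7 CPM (PP vs spleen log2 fold change 2.12, SE 0.12, adjusted p = 1.87e-06). In the spleen *H2-Eb2* rose with soluble OVA (0.55, SE 0.12, adjusted p = 0.00776) and with OVA NPs (0.38, SE 0.12, adjusted p = 0.0348), comparisons that share the PBS libraries.

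Regulators of class II transcription did not move as a block in PPs after soluble OVA. The list mixes activators with repressors, so its median has no single reading. Of 16 genes tested, 2 were higher and 3 were lower (median -0.09), against 13.5% of all tested genes called higher and 13.9% called lower. *Irf4*, which shapes B cell activation and plasma cell fate, fell from 358 ± 85.3 to 150.0 ± 36.4 CPM (-1.30, SE 0.23, adjusted p = 0.01), and *Irf1*, an interferon-responsive activator, fell by 0.52 on the log2 scale (SE 0.075, adjusted p = 0.00117). *Bach2*, a repressor of plasma cell fate, rose (0.55, SE 0.1, adjusted p = 0.00413), as did *Nfyb*, a subunit of the Y box factor NF-Y (0.36, SE 0.077, adjusted p = 0.00786). *Rfx5*, the X box factor subunit, had a log2 fold change of -0.22 (adjusted p = 0.0272), under the cutoff.

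Genes that make and trim peptides fell more often than they rose. Of 16 endosomal genes in PP soluble OVA against PP PBS, 7 were lower and 0 higher (median -0.25). Over all tested genes 13.9% were called lower and 13.5% higher. *Ctss*, the protease that removes the last part of the invariant chain in B cells, fell from 282 ± 6.65 to 182 ± 17.4 CPM (-0.68, SE 0.074, adjusted p = 0.00027), and *Ctsc* (-0.65, adjusted p = 0.00104) and *Ctsl* (-0.82, adjusted p = 0.00542) fell too. *Cd83*, which protects class II molecules from ubiquitin-driven turnover, fell from 933 ± 200.2 to 382 ± 81.4 CPM (-1.33, SE 0.19, adjusted p = 0.00393). In the spleen it rose with soluble OVA, from 229 ± 20.1 to 537 ± 31.7 CPM (1.26, SE 0.074, adjusted p = 1.11e-07), and the difference between tissues was -2.59 (SE 0.22, adjusted p = 5.36e-05).

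The class I pathway, which presents cytosolic peptides, was lower in part. Of 14 genes in PPs after soluble OVA, 7 were lower and 1 was higher (median -0.18), against 13.9% of all tested genes called lower and 13.5% called higher. The heavy chains *H2-K1* (-0.74, adjusted p = 0.000165) and *H2-D1* (-0.70, adjusted p = 0.000138), the light chain *B2m* (-0.59, adjusted p = 0.000571), and the peptide-loading factor *Tapbp* (-0.65, adjusted p = 0.00026) fell by amounts like those of the class II chains. *Nlrc5*, the class I counterpart of *Ciita*, went from 42.8 ± 7.15 to 24.3 ± 3.19 CPM (-0.86, SE 0.14, adjusted p = 0.00264). In the spleen, 3 of the 14 were higher and 0 lower with soluble OVA, against 10.5% of all tested genes called higher and 6.72% called lower.

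**Figure D4:**
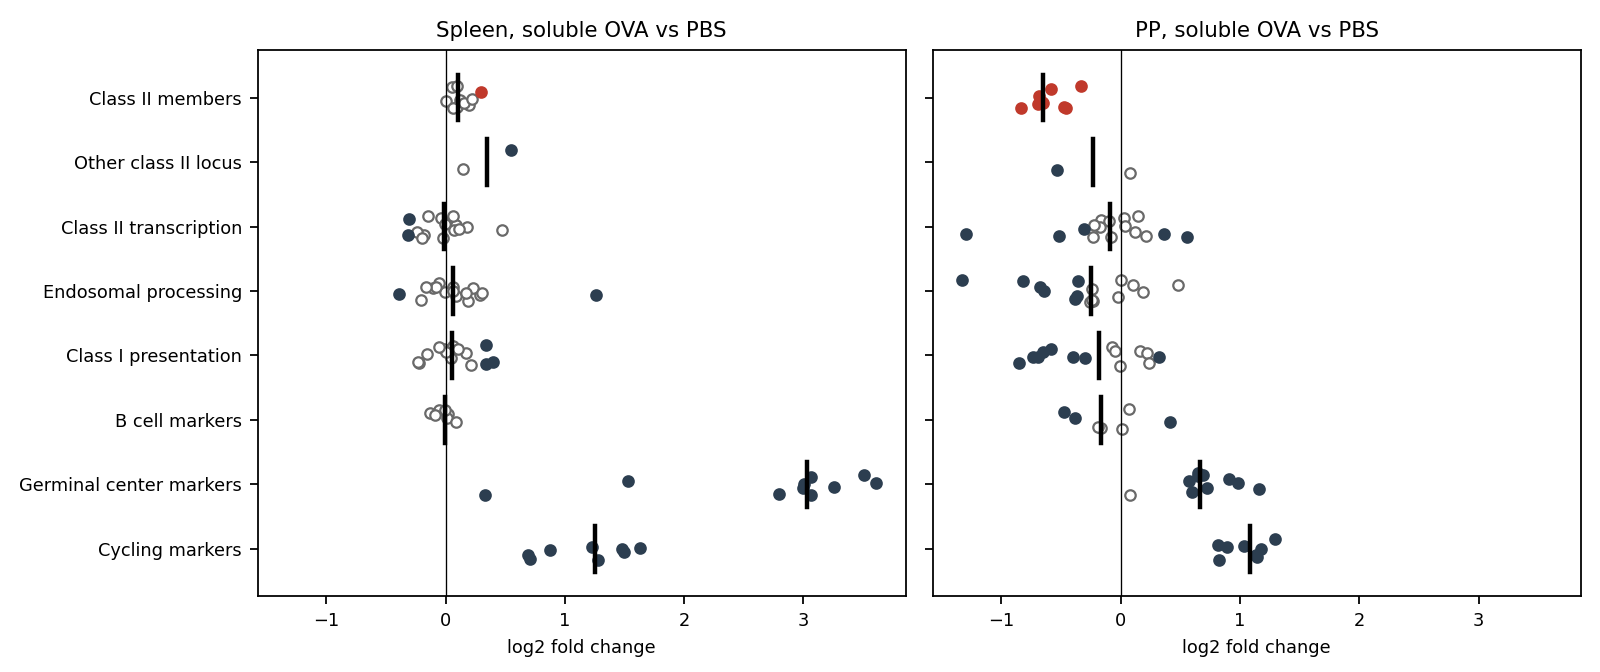
Log2 fold change (x axis) of soluble OVA vs PBS in the spleen and in PPs for the 10 members, the pathway lists, and 3 marker lists, where each point is a gene, filled if called, and the bar is the list's median. The member bar lies at 0.11 in the spleen and at -0.65 in PPs, while the cycling bar lies at 1.25 and 1.08.

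The members varied together across libraries. With each tissue's mean removed, Pearson's r over the 18 libraries ran from 0.723 to 0.968 over the 45 pairs of members (median 0.88), a description that shares the treatments and library composition. Among 8866 other genes with at least 10 CPM, the profile most like the mean of *H2-Aa*, *H2-Ab1*, *H2-Eb1*, and *Cd74* was that of *H2-Ea* (r = 0.981), followed by *Ctsh* (0.95), *AB124611* (0.934), *Cnpy3* (0.93), and *Fcrl1* (0.928). *Ctsh* encodes a lysosomal protease, and *Cnpy3* a chaperone of Toll-like receptors. The profile of *H2-Oa* and *H2-Ob* was most like those of *Pxk* (0.956), the nonclassical class I gene *H2-T23* (0.955), *H2-Ea* (0.953), *Capg* (0.942), and *Gpr183* (0.934), the last a receptor that positions activated B cells in the follicle.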

How the data were processed

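RNA of magnetically enriched B cells was sequenced from poly(A)-selected libraries. The authors trimmed reads with Cutadapt 2.3, aligned them with STAR 2.7.8a to GRCm38, and deposited RSEM 1.3.3 expected counts per gene, all whole numbers. The 18 libraries were grouped by their labels, which call them biological replicates, and p-values measure the spread between them. Each comparison was fitted on its own libraries with edgeR 4.0.16 (R 4.3.3, filterByExpr, TMM, robust quasi-likelihood test, Benjamini-Hochberg adjustment across the genes kept). DEGs were genes beyond 0.25 on the log2 scale in either direction with an adjusted p under 0.05, while interactions used the p-value alone. Alternatives were DESeq2 1.42.0, other filters and scalings, a replicate block, and leaving out each library. The fits were tested on simulated data. CPM used TMM-scaled totals, log2 CPM a prior count of 0.5, and TPM union exon lengths from GENCODE M21. Lengths of the longest coding transcript and a fit without mitochondrial genes were added after seeing the data. The members and gene lists were chosen with earlier results of these data known. Named beside the 10 members were up to 4 genes of each pathway list with the smallest adjusted p and the genes of most similar profile. *Rfx5*, *Nlrc5*, *Cd22*, *Cd79a*, *Blnk*, and *Lck* were named after their values were seen.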

Additional observations from a re-analysis of the deposited data

Results flagged for a closer look

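The response to soluble OVA differed between PPs and the spleen for all 10 members, by edgeR's test of the interaction of tissue with treatment. Over all 16541 tested genes the share called was 6.84%. As PP change minus spleen change on the log2 scale, the values were -1.05 for *H2-Oa*, -0.97 for *Ciita*, -0.77 for *H2-DMb2*, -0.75 for *H2-Ab1*, -0.70 for *H2-Aa*, -0.69 for *Cd74*, -0.68 for *H2-DMb1*, -0.65 for *H2-DMa*, -0.63 for *H2-Eb1*, and -0.39 for *H2-Ob*. *H2-Ab1*, *H2-DMa*, *H2-DMb1*, *H2-DMb2*, *H2-Oa*, and *Ciita* were called in all 12 refits that each left out 1 library. *H2-Aa*, *H2-Eb1*, *Cd74*, and *H2-Ob* each lost the call in some of these refits.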

How the results depend on the processing

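The lower level of the 10 members in PP soluble OVA against PP PBS libraries kept its count of 10 under each alternative fit of all libraries, and leaving out 1 library gave 7 to 10. Libraries of the same replicate number were not consistently alike after group means were removed (r from -0.34 to 0.26). That cannot exclude a pairing with 3 libraries per group. With a replicate block the count was 10 for PP soluble OVA against PP PBS and 9 for the soluble OVA interaction. It was 4 in place of 7 for PP OVA NP against soluble OVA. DESeq2 called 2 members in PP OVA NP against PBS. Without a fold change cutoff the PP to spleen comparison called 2 members with PBS and 3 with OVA NPs. For the latter, the count of 1 became 0 with DESeq2 size factors, the DESeq2 Wald test, no low-count filter, or no mitochondrial genes, and 2 with all 18 libraries in one fit. Leaving out 1 library gave 0 to 2 for that count, 0 to 2 for splenic soluble OVA against PBS, 3 to 10 for PP OVA NP against soluble OVA, and 6 to 10 for the soluble OVA interaction. Near-zero estimates in PP OVA NP against PBS changed sign. *H2-Ob* became -3.48e-05 with the replicate block, -0.011 with all 18 libraries, and -0.044 to 0.038 without 1 library, and *H2-DMb1* summed with *H2-DMb2* became -0.098. The sign of the H2-O to H2-DM difference depends on the genes counted. Without *H2-DMb2* it was 0.70, 0.70, and 0.63 in splenic PBS, soluble OVA, and OVA NP libraries and 0.66 in PP OVA NP libraries, and without *H2-DMb1* it was -0.62 and -0.65 in PP PBS and soluble OVA libraries. With plain library totals 6 of 60 group means of CPM moved by more than 1 SD. The causes were not tested. With 3 libraries per group, small differences could be missed.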
